A study of Mus musculus with 4 samples.

Results

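The junction genes described here are 10 genes of gap junctions and tight junctions in the vessel wall: the connexins Gja4, Gja5, Gja1 and Gjc1, the tight junction strand proteins Cldn5 and Ocln, the scaffold Tjp1, and the adhesion molecules Esam, Jam2 and F11r. They were listed by gene name, with no threshold on a measured value, but with earlier results of these data known. All 10 were found among the 27998 genes of each count table. Single-cell RNA was read in 4 libraries from C57BL/6 mice, whose sex is not given. The groups were intimal cells of the young aortic arch (1 library from 8 pooled mice), aged adventitia (1 library, number of mice not stated) and, as the group both were compared with, intimal cells of the aged descending aorta (libraries a and b, each from 6 pooled mice). The words young and aged come from the sample titles. No group carried a transgene or a treatment in the labels, and intimal cells met trypsin and actinomycin D on the way to the suspension. The adventitial label repeats the intimal protocol, and how the adventitial cells were released is not stated apart from it.

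Gap junctions are channels built of connexins that join the cytoplasm of neighbouring cells, and in arteries they couple endothelial cells to each other and to smooth muscle. Tight junctions seal the cleft between endothelial cells: claudins and occludin form the strands, Tjp1 ties them to actin, and immunoglobulin-type molecules such as Esam, Jam2 and F11r hold the membranes together. Gja4 and Gja5 are the connexins of arterial endothelium, Gja1 is known from endothelium of branch points and from many connective tissue cells, and Gjc1 is best known from smooth muscle. Cldn5 is the leading claudin of endothelium.

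After cell filters, 2122 cells of the arch, 7919 of the adventitia, and 1986 and 2095 of the descending libraries a and b were analysed. The median cell carried 6951.5 UMIs in the arch, 2476 in the adventitia, and 5198.5 and 4887 in the descending libraries (UMIs are unique molecular identifiers, each standing for 1 captured transcript). Clusters were formed without the 10 genes and without 84 further junction genes, and were named from marker lists that held none of the 10. Endothelial-like cells numbered 1253 in the arch, 413 in the adventitia, and 1484 and 1293 in the descending libraries. Levels below are in CPM: the UMIs of a gene, summed over the cells of a class in a library and scaled to a class total of 1000000. Genes are compared between samples and not with each other. The descending libraries shared 7 barcodes and other pairs of libraries shared 4 to 31. Since the arch and the adventitia have 1 library each, the spread in these tests is that between descending libraries a and b, which may be technical, and the single library is taken to vary alike. Region, age and library cannot be told apart in the arch comparison, nor can tissue layer, library and depth in the adventitial one.

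Promoters of Gja5, Cldn5 and Ocln, lower in arch endothelium below, and of Gja4, not called there, are shown. Krüppel-like factors, through which laminar flow acts on endothelium, bind sites with the core CACCC. Flow was not measured here, and whether such letters bear on the arch values was not tested. RefSeq windows (GRCm38.p6) of 300 bases, reaching 250 bases before a start and 50 after it, were on hand for 7 of the 10 genes. Capitals mark CACCC or its reverse complement GGGTG.
Gja5, chr3:97032152-97032451, plus strand: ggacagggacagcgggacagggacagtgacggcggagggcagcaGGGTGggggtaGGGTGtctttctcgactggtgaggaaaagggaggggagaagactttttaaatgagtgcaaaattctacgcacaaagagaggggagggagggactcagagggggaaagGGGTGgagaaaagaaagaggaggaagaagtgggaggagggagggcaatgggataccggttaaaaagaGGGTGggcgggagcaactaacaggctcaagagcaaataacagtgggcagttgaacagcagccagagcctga
Cldn5, chr16:18776597-18776896, plus strand: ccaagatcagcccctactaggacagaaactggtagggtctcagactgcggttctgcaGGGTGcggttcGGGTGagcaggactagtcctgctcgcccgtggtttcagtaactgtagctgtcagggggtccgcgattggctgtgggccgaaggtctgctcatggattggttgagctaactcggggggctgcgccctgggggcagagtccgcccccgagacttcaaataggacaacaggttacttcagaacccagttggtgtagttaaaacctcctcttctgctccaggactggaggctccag
Ocln, upstream of its 2 windows, chr13:100552669-100552968, minus strand: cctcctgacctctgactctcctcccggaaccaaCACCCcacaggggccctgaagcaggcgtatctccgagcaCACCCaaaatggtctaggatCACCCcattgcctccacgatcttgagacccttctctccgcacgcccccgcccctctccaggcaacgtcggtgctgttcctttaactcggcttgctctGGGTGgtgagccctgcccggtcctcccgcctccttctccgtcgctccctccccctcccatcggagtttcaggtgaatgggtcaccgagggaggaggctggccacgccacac
Gja4, chr4:127313990-127314289, minus strand: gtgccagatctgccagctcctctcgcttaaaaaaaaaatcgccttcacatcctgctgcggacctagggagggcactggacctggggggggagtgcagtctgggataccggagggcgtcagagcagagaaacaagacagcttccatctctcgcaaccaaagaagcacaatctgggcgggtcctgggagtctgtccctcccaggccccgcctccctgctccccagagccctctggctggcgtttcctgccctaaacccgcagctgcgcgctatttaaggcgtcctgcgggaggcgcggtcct
The Gja5 window held 4 matches, the Cldn5 window 2, the Ocln windows 4 and 1, and the Tjp1 window 2. Those of Gja4, Gja1 and F11r held 0. Among all 32851 windows of the table, 57.52% held at least 1 match, 25.66% at least 2 and 3.1% at least 4. The letters CGGAAG, the core bound by ETS factors, were found on either strand in the Tjp1 window alone of the 8, and in 16.85% of all windows. A match describes these letters and is not a tested site.

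Across the scraped intima, 9 of the 10 genes were higher in endothelial-like than in fibroblast-like cells, and Gja1 was lower. The sums of both classes in the 3 intimal libraries were compared in edgeR (quasi-likelihood), with the library as a block. All 10 genes passed a Benjamini-Hochberg adjusted p of 0.05, 9 higher and 1 lower. Over all 11797 genes tested, 25.7% were called higher and 26.4% lower, and the median log2 fold change was 3.12 for the 10 genes and 0.02 for all genes. Gja5 reached 178 CPM in arch endothelium against 12.8 CPM in arch fibroblasts, and 420 and 474 CPM in descending endothelium against 27.7 and 31.2 CPM in descending fibroblasts. Its log2 fold change was 3.72 ± 0.11 (SE, edgeR adjusted p = 1.15e-07). Gja1 went the other way: it had 1.07 CPM in arch endothelium against 44.8 CPM in arch fibroblasts, and 1.89 and 1.46 CPM in descending endothelium against 78.2 and 76.6 CPM in descending fibroblasts. The log2 fold change of Gja1 was -5.63 ± 0.16 (SE, edgeR adjusted p = 8.7e-08). The other 8 ranged in log2 fold change from 1.45 for Gjc1 to 3.78 for Ocln.

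**Figure D1:**
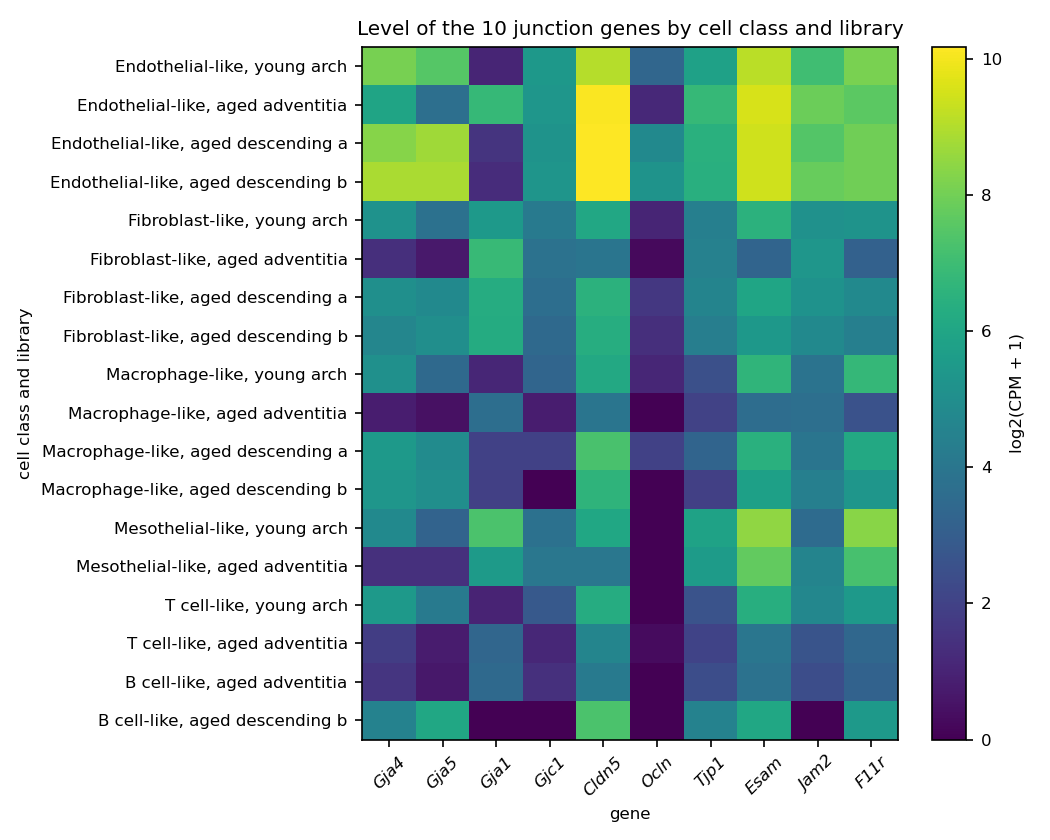
Level of each of the 10 genes, as log2(CPM + 1), in 6 cell classes, for each library with at least 20 cells of the class; rows are a class in a library and columns are genes. In each intimal library every gene but Gja1 is brighter in the endothelial-like than in the fibroblast-like row, and Gja1 is brightest in mesothelial-like, adventitial endothelial-like and fibroblast-like rows.

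Against macrophage-like cells, 9 of the 10 genes could be tested and all 9 were higher in endothelium, where 20.7% of 11583 genes were called higher and 17.9% lower. Gja1 was not tested, with 1 UMI in the macrophages of each intimal library. Among the 9, Gja5 had the largest log2 fold change, 3.64 ± 0.23 (edgeR adjusted p = 1.69e-10), and F11r the smallest, 1.49 ± 0.22 (edgeR adjusted p = 2.27e-05). Macrophage-like cells had 110 CPM of F11r in the arch, and 70.1 and 39.8 CPM in the descending libraries. Within them F11r, a junctional adhesion molecule also known from platelets and leukocytes, was uneven among clusters. The cluster led by Mmp12, H2-M2 and Mmp13 had 137 CPM of F11r in the arch (74 cells) and 159 CPM in descending library a (25 cells). In descending library b it held 17 cells with 6 UMIs of F11r. The other intimal macrophage cluster, led by Folr2, Cd209f and Mrc1, had 23.8 CPM in the arch, and 26.2 and 30.6 CPM in the descending libraries. In the arch the Mmp12 cluster had 99.4 CPM of Esam against 99.9 CPM in the Folr2 cluster, and 35.6 against 28.5 CPM of Gja4. These differences between clusters were not tested.

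In droplet libraries free RNA can be counted in cells that do not make it, so the level of each gene in other classes was set beside that of 9 endothelial naming markers. In arch fibroblasts those markers stood at a median of 12.9% of their endothelial level (8.46% to 27.6%), and in descending fibroblasts at 9.09% (0% to 23.2%) and 6.65% (5.23% to 26.7%). Cldn5 in fibroblasts stood at 12.9% in the arch, and at 8.16% and 6.87% in the descending libraries. Esam stood at 16.7%, 9.15% and 6.03%, and Gja5 at 7.21%, 6.58% and 6.58%, in the same order. These 3 genes lay within the range of the markers in each library, apart from Gja5 in the arch, which lay under it. How much of their fibroblast level was free RNA was not tested. Tjp1 stood at 36.3% in the arch, and at 26.5% and 23.0% in the descending libraries. Gjc1 stood at 40.4%, 31.9% and 25.9%, in that order. Both were above the highest of the 9 markers in the arch and in library a, and under it in library b. In macrophages F11r stood at 39.6% in the arch, and at 27.9% and 16.0% in the descending libraries. The markers in macrophages had medians of 13.7%, 9.98% and 9.60%, in the same order. F11r was above the highest of the 9 markers in the arch and in library a, and under it in library b.

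**Figure D2:**
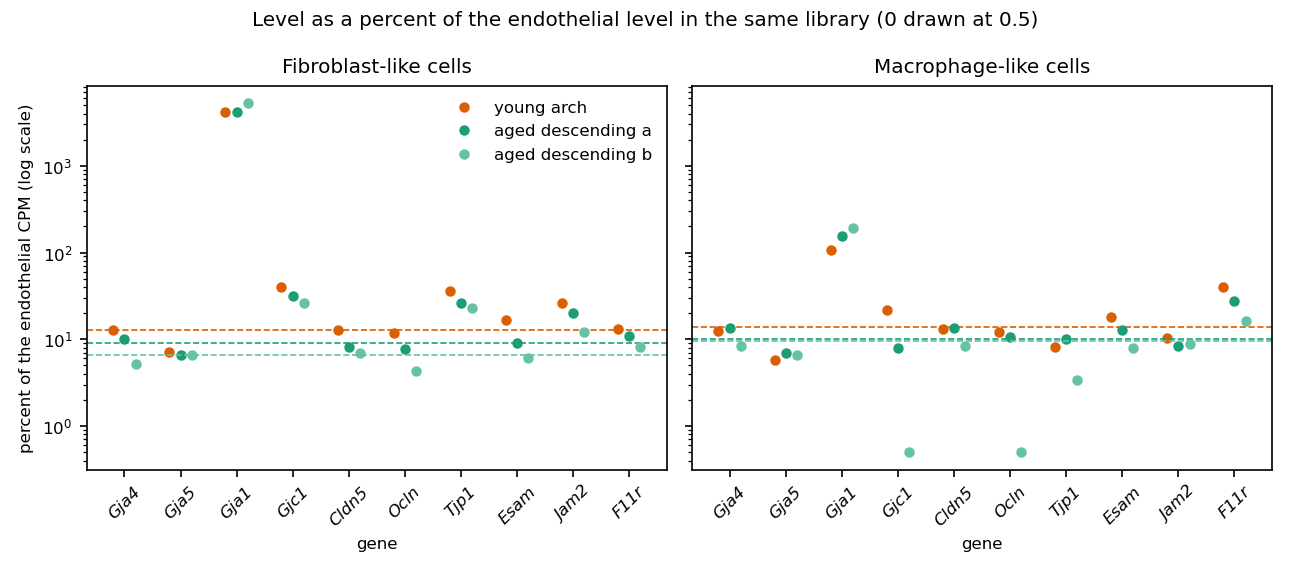
Level of each gene in fibroblast-like (left) and macrophage-like cells (right) as a percent of its endothelial level in the same library, on a log axis; dashed lines are the median of 9 endothelial naming markers, and a value of 0 is drawn at 0.5. Gja1 lies far above 100% in fibroblasts, and Cldn5 and Esam lie near the dashed lines. Gja5 lies under the dashed lines, farthest under them in the arch.

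In arch endothelium 5 of the 10 genes were lower than in descending endothelium, 0 were higher and 5 were not called (edgeR, 4 libraries in 1 fit, 1 residual degree of freedom). Of all 13054 genes tested, 5.01% were called lower and 6.12% higher. The median log2 fold change was -0.54 over the 10 genes and -0.01 over all genes. Of the connexins, Gja5 (ENSMUSG00000057123, chr3:96904693-97077416, all gene coordinates in GRCm38) stood at 178 CPM in the arch, against 420 and 474 CPM in the descending libraries. The arch lay below both. Its log2 fold change was -1.25 ± 0.17 (SE, edgeR adjusted p = 2.95e-06), which is 2.38-fold lower. In cells thinned to 2000 UMIs, Gja5 was found in 28.7% of arch endothelial cells (95% exact interval 26.2% to 31.3%), against 52.3% (49.7% to 54.9%) and 58.0% (55.2% to 60.8%) of descending ones. Unthinned, the shares were 70.2% in the arch, against 80.4% and 83.9%, at median depths of 8395, 5737 and 5397 UMIs. T cells of the arch, which should lack the gene, had a thinned share of 3.75% and an unthinned one of 8.13% at a median depth of 4364 UMIs. Thinning left out 0 arch cells and 48 and 85 descending ones. The Gja5 locus overlaps genes on the opposite strand, among them Gpr89, and the strand setting of the counting is not given in the sources used here.

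Gja4 (ENSMUSG00000050234, chr4:127311421-127314039) had 274 CPM in the arch, against 321 and 472 CPM in the descending libraries. The arch was the lowest, but libraries a and b differed more from each other than the arch did from library a, and the log2 fold change of -0.46 ± 0.18 was not called (edgeR adjusted p = 0.119). Gjc1 (chr11:102799579-102819700) had 41.8 CPM in the arch, against 36.6 and 38.9 CPM, with a log2 fold change of 0.22 ± 0.15 (edgeR adjusted p = 0.416). Gja1 (chr10:56377330-56402513) had 13 UMIs in arch endothelium, or 1.07 CPM, against 20 and 13 UMIs, or 1.89 and 1.46 CPM, in the descending libraries. Of these, 1 arch UMI, and 11 and 4 descending ones, lay in the cluster led by Ccl21a, Nts and Mmrn1, which held 2 arch cells, and 18 and 4 descending cells. Without capillary, venous and lymphatic subgroups the log2 fold change was 0.15, also not called (edgeR adjusted p = 0.937). At this depth no difference in Gja1 was detectable (log2 fold change -0.58 ± 0.47, edgeR adjusted p = 0.515).

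Of the tight junction genes, Cldn5 (ENSMUSG00000041378, chr16:18776847-18778262) stood at 527 CPM in the arch, against 1134 and 1157 CPM in the descending libraries. The arch was 2.06-fold lower (log2 fold change -1.04 ± 0.16, SE, edgeR adjusted p = 3.09e-05). Ocln (ENSMUSG00000021638, chr13:100496507-100552718), which encodes occludin, stood at 9.38 CPM in the arch, from 114 UMIs, against 27.5 and 36.5 CPM in the descending libraries, from 291 and 324 UMIs. Its fall was the largest of the 10, 3.22-fold (log2 fold change -1.69 ± 0.22, edgeR adjusted p = 1.08e-06). Its thinned share was 1.84% of arch cells, against 7.45% and 7.28% of descending cells, and 0 of 160 arch T cells had a UMI of it, which allows a share of up to 1.875% with a floor of 3 counts. The arch share was under that limit. Unthinned, the shares of Ocln were 8.38% in the arch, against 17.2% and 21.5%. Tjp1 (chr7:65296165-65527781), the scaffold, had 55.6 CPM in the arch, against 86.4 and 84.9 CPM (log2 fold change -0.55 ± 0.16, edgeR adjusted p = 0.0238).

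Of the adhesion molecules, Jam2 (chr16:84774123-84825928) was called lower in the main setting and the other 2 were not called. Jam2 had 130 CPM in the arch, against 175 and 225 CPM in the descending libraries (log2 fold change -0.54 ± 0.17, SE, edgeR adjusted p = 0.0395), and without library b its log2 fold change was -0.35. Esam (chr9:37528078-37538319) had 554 CPM in the arch, against 686 and 690 CPM, with a log2 fold change of -0.24 ± 0.16 (edgeR adjusted p = 0.405). F11r (chr1:171437535-171464603) had 277 CPM in the arch, against 251 and 248 CPM (log2 fold change 0.23 ± 0.16, edgeR adjusted p = 0.421). The calls of Gja5 and Cldn5 were also made by DESeq2, which did not call Ocln (adjusted p = 0.0877), Tjp1 (adjusted p = 1.0) or Jam2 (adjusted p = 0.889). In thinned cells the edgeR adjusted p was 0.0828 for Tjp1 and 0.0917 for Jam2, and without doublet removal it was 0.063 and 0.135. With RLE size factors Jam2 was not called either (edgeR adjusted p = 0.0605). Beside these falls, the summed level of 9 endothelial naming markers was 6086 CPM in arch endothelium, against 8078 and 8505 CPM in descending endothelium. That of 7 smooth muscle markers was 588 CPM, against 153 and 136 CPM, with all 7 found in each library. Clustered on their own, endothelial cells fell mostly into groups of 1 origin: 777 and 465 of the 1253 arch cells fell into a pair of groups that held 5 and 7 cells of descending library a and 6 and 0 of library b. The first of these was led by genes that include Acta2, Tagln and Col3a1. The part of these markers in the result was not tested.

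**Figure D3:**
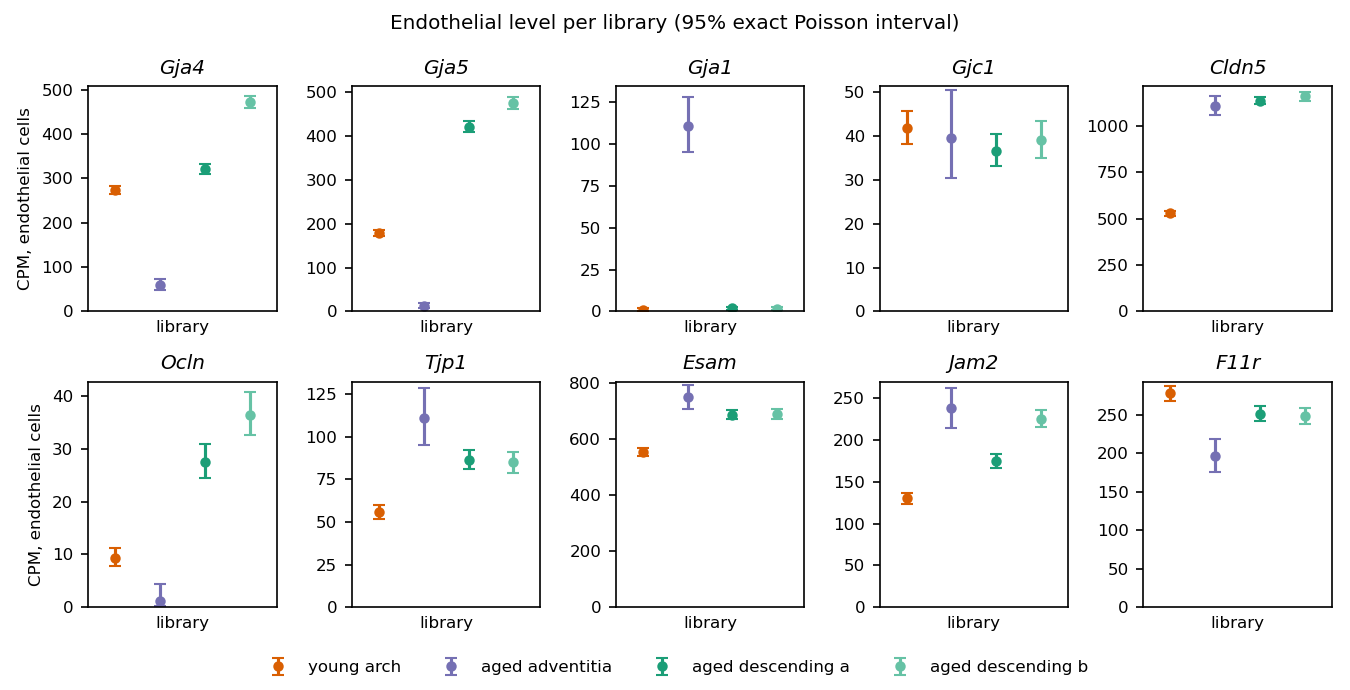
Level of each gene in endothelial-like cells, in CPM on axes that start at 0, with the young arch and the aged adventitia left of the aged descending libraries a and b; bars are 95% exact Poisson intervals and cover counting error only. Among the intimal libraries the arch point is lowest for Gja5, Cldn5, Ocln, Tjp1 and Jam2. It is also lowest for Gja4, Gja1 and Esam, which were not called. Gja1 is high in the adventitia alone.

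Of the 84 wider junction genes found in the files, 41 were tested in endothelium, of which 3 rose in the arch, 1 fell and 37 were not called, where 6.12% of all genes were called higher and 5.01% lower. Their median log2 fold change was -0.11, against -0.01 over all genes. Cldn7, an epithelial-type claudin, had 21.1 CPM in the arch, against 12.5 and 10.9 CPM in the descending libraries (log2 fold change 0.92 ± 0.22, edgeR adjusted p = 0.00353). Cldn15, a pore-forming claudin, had 46.2 CPM, against 67.7 and 88.4 CPM (log2 fold change -0.68 ± 0.17, edgeR adjusted p = 0.0082). The other 2 genes that rose rested on few counts: Cxadr, a junctional receptor, had 23 UMIs in the arch and 3 over the descending libraries, a ratio of 12.3 (counting interval 3.71 to 63.8). The connexin Gjb5 had 15 and 3 UMIs, a ratio of 8.0 (2.26 to 43.1).

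In the clustering of all cells, arch and descending endothelium fell into the same clusters in different shares, so the levels were also read within clusters. Cluster 6, led by Bmp4 and Edn1, held 47.9% of arch endothelial cells, against 12.4% and 14.4% of descending ones. Cluster 3, led by Serpina1d, held 44.1% of arch cells, against 3.57% and 6.88%. Cluster 1, led by Nkx2-3 and Spon1 beside Gja5, held 7.50% of arch cells, against 52.7% and 57.2%, and cluster 2, led by Adra2a and Adh7, held 5 arch cells, against 447 and 274 cells. In cluster 6 Cldn5 stood at 266 CPM in the arch, against 169 and 225 CPM in the descending libraries. In cluster 2 it stood at 1573 and 1971 CPM in the descending libraries. In each descending library cluster 6 had the lowest Cldn5 level of the 4 clusters. Gja5 had 151 CPM in arch cells of cluster 6, against 244 and 244 CPM in descending cells. For Gja4, cluster 6 had 290 CPM in the arch, against 403 and 532 CPM, where cluster 1 had 228 CPM, against 312 and 436 CPM.

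**Figure D4:**
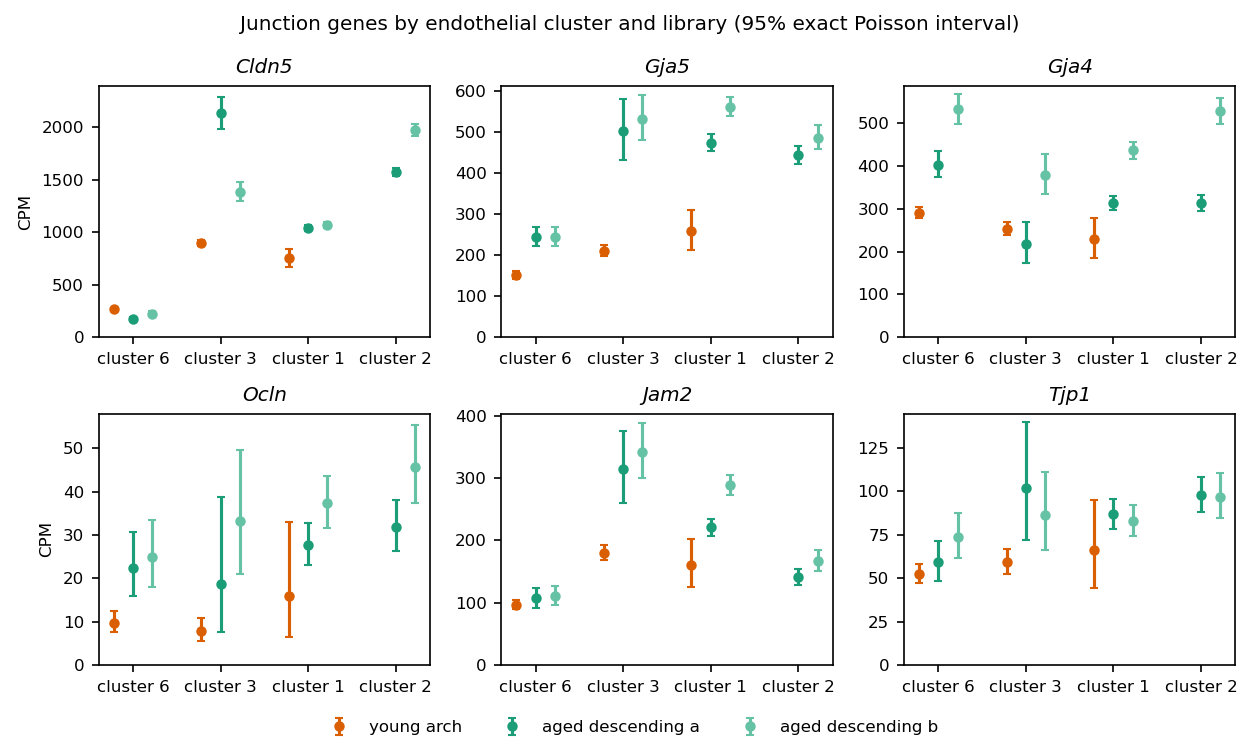
Level in CPM of 6 of the genes in the 4 endothelial clusters of the intima (x axis, clusters 6, 3, 1 and 2), with the young arch left of the aged descending libraries and 95% exact Poisson intervals. Cldn5, Ocln, Gja5 and Jam2 are lower in cluster 6 than in cluster 1 in each library; cluster 2 has no arch point because it held 5 arch cells.

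Tested within clusters, an alternative added after the data were seen, members were called in 2 of the 3 clusters. Whether a fold change differed between clusters was not tested. In cluster 3, Gja5, Cldn5, Jam2 and Ocln were called lower in the arch, where 1.82% of 7976 genes were called lower and 1.88% higher. Their log2 fold changes there were -1.24, -0.89, -0.80 and -1.75 (edgeR adjusted p from 2.46e-06 to 0.0324). In cluster 1, Gja5 alone was called lower, at -0.96 ± 0.20 (edgeR adjusted p = 0.0201), where 0.286% of 11179 genes were called lower and 0.59% higher. In cluster 6 edgeR called 0 of 10181 genes, with 972 at an unadjusted p under 0.05, and Cldn5 turned to a log2 fold change of 0.50 ± 0.24 (edgeR adjusted p = 0.548). Gja5 was at -0.63 and Ocln at -1.20 in cluster 6, not called.

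In adventitial endothelium, of which 370 of 413 cells formed a cluster led by Gpihbp1 and Depp1, Gja1 was higher and Gja4 and Gja5 were lower than in descending endothelium. Against the same 2 descending libraries, 2 of the 10 genes rose and 3 fell, while 19.7% of the 13054 genes were called higher and 17.9% lower. Gja1 stood at 111 CPM in the adventitia, against 1.89 and 1.46 CPM in the descending libraries (log2 fold change 6.11 ± 0.28, SE, edgeR adjusted p = 1.02e-17). Gja5 stood at 12.3 CPM, from 20 UMIs, against 420 and 474 CPM (log2 fold change -5.09 ± 0.26, edgeR adjusted p = 1.68e-16). Gja4 stood at 59.7 CPM, against 321 and 472 CPM (log2 fold change -2.63 ± 0.23, edgeR adjusted p = 5.61e-11). For all 3 connexins the adventitia lay outside both descending libraries, which also served the arch comparison.

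Ocln had 2 UMIs in adventitial endothelium, against 615 over the descending libraries, which is 3.90% of their level (counting interval 0.471% to 14.1%). Cldn5, at 1107.5 CPM in the adventitia against 1134 and 1157 CPM, was not called (log2 fold change 0.05 ± 0.16, edgeR adjusted p = 0.848). Tjp1 had 111 CPM, against 86.4 and 84.9 CPM (log2 fold change 0.47 ± 0.17, edgeR adjusted p = 0.0329), a call that DESeq2, thinned cells, no doublet removal and no low-count filter each lost. Gjc1, Esam, Jam2 and F11r, at 39.4, 748, 238 and 196 CPM, were not called. A smaller cluster of 40 adventitial endothelial cells led by Ccl21a, Nts and Mmrn1 had 216 CPM of Gja1. Adventitial endothelium carried 34383 CPM of 6 capillary markers, against 152 and 107 CPM in the descending libraries, and 401 CPM of 6 arterial markers, against 1825 and 1671 CPM. Summed over 5 pericyte markers it had 1004 CPM, against 64.7 and 76.1 CPM. The part of these markers in the result was not tested. Its 1623542 UMIs were the fewest of the 4 endothelial sums. Adventitial T cells had 9.35 CPM of Gja1 and adventitial B cells 10.2 CPM.

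**Figure D5:**
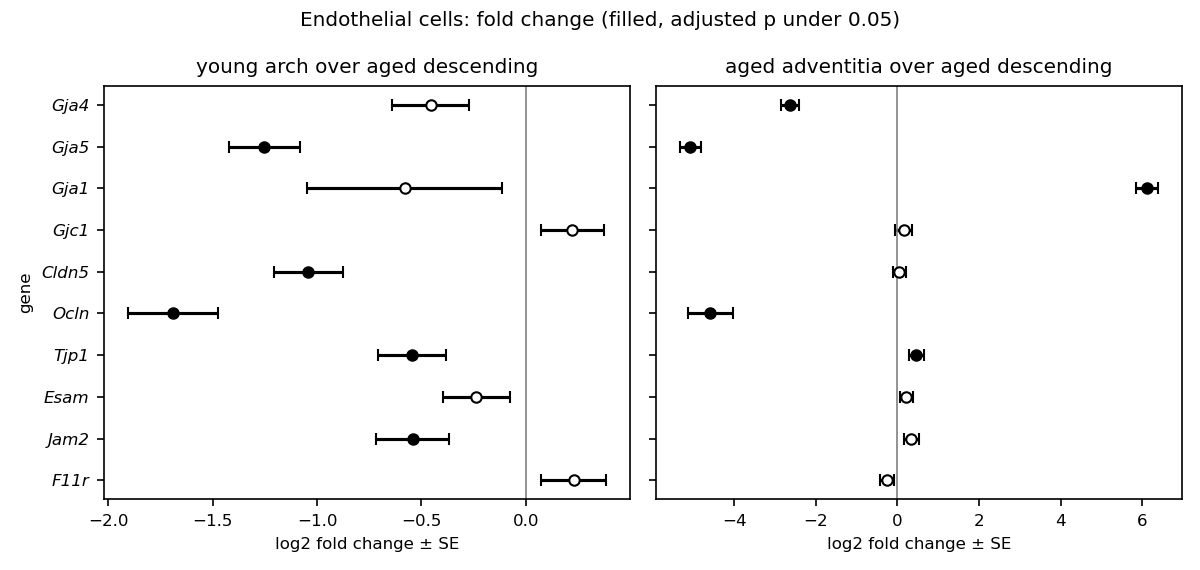
Log2 fold change with SE in endothelial-like cells for each gene, the young arch over the aged descending libraries (left) and the aged adventitia over the same libraries (right); filled points have an edgeR adjusted p under 0.05. Gja5 and Ocln are negative and filled in both panels, and Gja1 is at 6.11 in the right panel.

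Of the 41 wider genes tested, 16 were higher in adventitial endothelium and 9 lower, where 19.7% of all genes were called higher and 17.9% lower, with a median log2 fold change of 0.30 against -0.09 over all genes. The rises with the lowest adjusted p were of Nectin2, Clmp, Jam3, Cdh2 and Jup. Nectin2 had 102 CPM in the adventitia, against 14.0 and 10.6 CPM, and Jam3 had 53.6 CPM, against 5.30 and 8.44 CPM. Cdh2, N-cadherin, had 17 UMIs in the adventitia and 0 over the descending libraries, at least 67.9-fold higher with a floor of 3 counts over that group. The falls were led by Cgnl1, Pecam1, Ptprb, Nectin1 and Cldn7. Cgnl1, a plaque protein that binds the scaffold, had 25.3 CPM, against 500 and 514 CPM. Pecam1 is also a naming marker of endothelium. Cldn7 had 0 UMIs in the adventitia and 229 over the descending libraries, at least 6.37-fold lower.

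The 2 arterial connexins were read in the same cells, each thinned to 2000 UMIs. Gja4 and Gja5 were found together in 9.98% of arch endothelial cells (8.37% to 11.8%), in 0.625% of adventitial ones (0.0758% to 2.24%), and in 19.6% (17.5% to 21.7%) and 32.0% (29.4% to 34.8%) of descending ones. Neither was found in 43.3% of arch cells, 88.8% of adventitial cells, and 24.9% and 20.1% of descending cells. The product of the separate shares was 10.9% in the arch, 0.188% in the adventitia, and 22.1% and 31.3% in the descending libraries. Gja5 was found in 26.3% of arch cells with Gja4 and 30.2% of those without it. In descending library a these shares were 46.2% and 56.8%, and in library b 59.4% and 56.4%, so the order of the shares was not the same in the descending libraries. A UMI missed at this depth does not show that a cell lacks the RNA. In the adventitia both genes were found in 2 of 320 endothelial cells, after thinning had left out 93 of 413.

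In arch fibroblast-like cells Gja1 and Gja5 were lower than in descending ones and Esam was higher. Gja1 had 44.8 CPM in arch fibroblasts, against 78.2 and 76.6 CPM in descending fibroblasts (log2 fold change -0.77 ± 0.23, SE, edgeR adjusted p = 0.0213). Gja5 had 12.8 CPM, against 27.7 and 31.2 CPM (log2 fold change -1.19 ± 0.31, edgeR adjusted p = 0.00583). Esam had 92.4 CPM, against 62.8 and 41.6 CPM (log2 fold change 0.88 ± 0.21, edgeR adjusted p = 0.00197). That made 2 of 9 tested genes lower and 1 higher, where 2.11% of 11533 genes were called lower and 2.76% higher. DESeq2 called none of the 3. Beside these values, 9 endothelial markers summed to 778 CPM in arch fibroblasts, against 772 and 616 CPM, and 7 smooth muscle markers to 265 CPM, against 56.9 and 33.1 CPM. Fibroblast Gja5 was 7.21% of its endothelial level in the arch, against 6.58% and 6.58% in the descending libraries. Endothelial Gja5 was itself lower in the arch, and the part of free RNA in these calls was not tested. In adventitial fibroblasts Gja1 stood at 116 CPM, higher than in the descending ones (log2 fold change 0.76 ± 0.20, edgeR adjusted p = 0.00107), a call that DESeq2 did not make. Gja5, Gja4, Cldn5, Esam and F11r were called lower there, 5 of 9 tested genes where 10.6% of all genes were called lower and 14.3% higher. DESeq2 did not call F11r (log2 fold change -1.38, adjusted p = 0.357). Gja5 had 3 UMIs in adventitial fibroblasts, against 151 over the descending ones, which is 2.00% of their level (0.408% to 5.96%). The summed level of 9 endothelial markers was 86.6 CPM in adventitial fibroblasts, against 772 and 616 CPM in descending ones, and its part in these falls was not tested. The fibroblasts compared here fell mostly into different clusters. Cluster 5 held 335 of 336 and 642 of 647 descending fibroblasts, but 42 of 1439 adventitial ones. Clusters 18 and 21 held 903 and 494 of the adventitial fibroblasts. Within fibroblast cluster 5, with its 42 adventitial cells, edgeR called none of the 9 genes in this comparison. The log2 fold changes there were, by edgeR, -2.02 for Cldn5 (adjusted p = 0.0526), -3.26 for Esam (adjusted p = 0.0799) and -1.14 for F11r (adjusted p = 0.629), and those 42 cells held 0 UMIs of Gja4 and Gja5.

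Whether the arch difference in endothelium differed from that in fibroblasts was tested as a class-by-arch term over 6 sums. It was called negative for Esam (-1.14 ± 0.23 in log2, edgeR adjusted p = 0.000101), Gja4 (-0.83 ± 0.25, adjusted p = 0.0265) and Jam2 (-0.76 ± 0.24, adjusted p = 0.039), 3 of 10 genes, where 1.72% of 11797 genes were called lower and 1.96% higher. Gja5 was at -0.09 ± 0.30 (edgeR adjusted p = 0.971) and Cldn5 at -0.75 ± 0.25 (adjusted p = 0.0598). DESeq2 called none of these, and without descending library b the terms of Gja4 and Jam2 were -0.35 and -0.40. In fibroblasts the 9 endothelial naming markers had a median of 12.9% of their endothelial level in the arch. In the descending libraries that median was 9.09% and 6.65%. The part of free RNA in the class-by-arch terms was not tested.

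Outside these classes, mesothelial-like cells had 156 CPM of Gja1 in the arch and 45.6 CPM in the adventitia. They had 362 and 212 CPM of Esam, and 325 and 147 CPM of F11r, in that order. Of arch mesothelial-like cells, 88.6% had a UMI of Esam and 93.2% of F11r, at a median of 8940.5 UMIs, against 31.9% and 18.1% of arch T cells at a median of 4364 UMIs. Thinned, these shares were 59.1% and 52.3% of mesothelial-like cells, against 15% and 6.25% of T cells. Smooth muscle-like cells numbered 35 over the 4 libraries, too few to compare. Pooled, they held 17 UMIs of Gja1, 9 of Gja4, 6 of Gjc1, 22 of Esam and 2 of Gja5.

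The genes most like each of the 10 over 27 sums of a class in a library were named by the Pearson correlation of log2(CPM + 1) among 8240 genes. These sums share libraries and depth, so the values are a description. Gja5 was most like Plek2 (0.956), Nos3 (0.950) and Ccm2l (0.948). Gja4 was most like Ecscr (0.950), Egfl7 (0.941) and Pkn3 (0.938). Cldn5 was most like Epas1 (0.966), Egfl7 (0.962) and Sncg (0.916). Gja1 was most like Steap4 (0.895), L3hypdh (0.880) and Lbp (0.863), and Gjc1 most like Cdc42bpa (0.945), Zhx3 (0.927) and Crip2 (0.923). Ocln, whose own mean was under 10 CPM, was most like Dll1 (0.869), Foxc2 (0.833) and Cmip (0.833). Tjp1 was most like Sh3bp4 (0.943), Pdgfd (0.903) and Fzd4 (0.881), and Esam most like Tm4sf1 (0.936), Cav1 (0.932) and Cavin2 (0.920). Jam2 was most like Fam189a2 (0.913), Ccdc85b (0.907) and Caskin2 (0.899), and F11r most like Afdn (0.891), C130074G19Rik (0.886) and Parvb (0.872).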

How the data were processed

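Per the labels' protocols, droplet libraries used 10x Chromium Single Cell 3' chemistry (v2). Per the submitters' processing notes, Cell Ranger 2.1.2 and mm10 were used. The annotation release is not given in the sources used here. The deposited files hold the authors' raw UMI counts per gene and barcode, with 2187 barcodes in the arch, 9347 in the adventitia, and 2095 and 2178 in descending libraries a and b. Their totals were 18624525, 29370967, 13715023 and 13181305 UMIs, in that order. A reference table gave symbols for 27645 of 27998 gene IDs. Gene coordinates are those of GENCODE M21 (GRCm38).

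A barcode needed 200 genes or more and 10% mitochondrial UMIs or fewer. Scrublet's automatic threshold marked 24 barcodes in the arch, 2 in the adventitia, and 6 and 24 in the descending libraries. The highest scores at 0.8% per 1000 barcodes were therefore removed in each library (50, 578, 44 and 37 barcodes, in that order). All libraries were clustered together without batch correction (scanpy 1.11.5, leidenalg 0.10.2, 2000 variable genes, 30 components, 15 neighbours, resolution 1.0), leaving out the 10 genes and the wider junction list. Clusters were named "-like" from marker lists. A marker counted if found in 20% of a cluster's cells, at 2 times percentile 25 over clusters and at 10% of the top cluster, and a name needed 3 markers.

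Counts were summed per library and class and tested in edgeR 4.0.16 (TMM, filterByExpr, quasi-likelihood, Benjamini-Hochberg, threshold 0.05). The residual degrees of freedom in the comparisons with descending libraries were 1, and the prior added 28.7 for endothelium and 218 for fibroblasts, so these p-values lean on spread pooled over genes. For the class-by-arch term, also with 1 residual degree of freedom, the prior was infinite, so its p-values rest on that pooled spread. Each test was first tried on simulated data with a fixed spread. That trial does not show how the tests behave at the spread of these libraries. Shares carry Clopper-Pearson and levels Poisson exact 95% intervals, a share of 0 is given the limit that 3 counts allow, and all intervals and floors cover counting error only. Alternatives were DESeq2 1.42.0, RLE size factors, no filter, thinning to 2000 UMIs, no doublet removal, resolution 0.5, other sets of cells and leaving out libraries. The text names all 10 genes, up to 5 wider genes per direction by lowest adjusted p, and the 3 genes most correlated with each. The members and lists were chosen with earlier results of these data known. Protein sequences were not analysed here.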

Additional observations from a re-analysis of the deposited data

Results flagged for a closer look

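In 8 junction genes the difference of arch from descending cells was not the same in endothelium and fibroblasts, by edgeR's test of that term, out of 10 members and 39 wider genes tested. Over all genes, 1.96% were called higher and 1.72% lower in this term. DESeq2 called 0 of the members' terms. Relative to endothelium, the median of the endothelial naming markers was higher in arch than in descending fibroblasts, as given above. The part of free RNA in the terms was not tested. Of the members, Esam (-1.14), Gja4 (-0.83) and Jam2 (-0.76) had endothelial values given above. In fibroblasts Gja4 had 35.2 CPM in the arch against 32.4 and 24.6 CPM in the descending libraries, and Jam2 had 34.5 CPM against 35.1 and 27.1 CPM. Of the wider list, Ptprb, a phosphatase of endothelial junctions, had a term of -1.83 ± 0.26 (SE, edgeR adjusted p = 4.65e-10), with 1900 CPM in arch endothelium against 1664 and 1574 CPM, and 811 CPM in arch fibroblasts against 284 and 125 CPM. Macrophages had 836 CPM of Ptprb in the arch against 342 and 176 CPM in the descending libraries, and the arch difference there was not tested. Rasip1 (-1.07) had 233 CPM in arch endothelium against 291 and 286 CPM, and 29.3 CPM in arch fibroblasts against 24.5 and 11.7 CPM. Pkp4 (-1.0) had 118 CPM in arch endothelium against 142 and 115 CPM, and 18.0 CPM in arch fibroblasts against 10.1 and 8.83 CPM. Amotl2 (1.17) had 65.9 CPM in arch endothelium against 64.8 and 52.8 CPM, and 67.5 CPM in arch fibroblasts against 124 and 138 CPM. Cldn3 had a term of 1.5 ± 0.46 (SE, edgeR adjusted p = 0.0341), which rested on few endothelial counts. It had 2.30 CPM in arch endothelium against 0.852 and 1.13 CPM, from 19 UMIs over the descending libraries. In arch fibroblasts Cldn3 had 51.7 CPM against 54.2 and 69.0 CPM.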

How the results depend on the processing

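No paired analysis was possible because the arch and the adventitia have 1 library each, and the labels pair neither with a descending library. Comparisons of classes within the intimal libraries had the library as a block throughout. In arch against descending endothelium, edgeR called 1453 genes and 5 members lower. DESeq2 called 197 genes and 2 members lower, thinned cells gave 419 and 3, and no doublet removal 841 and 3. Within clusters, an alternative added after seeing the data, the counts were 98 genes and 1 member in cluster 1, 295 genes and 4 members in cluster 3, and 0 and 0 in cluster 6. In adventitial against descending endothelium, 4919 genes were called, but 2214 by DESeq2 and 2794 in thinned cells. The members higher there numbered 1 under DESeq2, no filter, thinning and no doublet removal, against 2. Endothelium against macrophages had 4463 genes called, and 2889 in thinned cells. For arch fibroblasts, 561 genes were called, 52 by DESeq2, 298 in thinned cells and 241 without doublet removal. Their members higher were 0 under DESeq2 and no doublet removal, and members lower were 0 under DESeq2 and 1 under thinning, no doublet removal and fibroblast cluster 5. For adventitial fibroblasts, 2869 genes were called, 597 by DESeq2 and 192 in fibroblast cluster 5, with 0 members higher in both, and 0 lower in cluster 5. For the difference between classes, 434 genes were called, 39 by DESeq2 and 129 in thinned cells, with members lower at 0 under DESeq2 and 1 under no filter, thinning and no doublet removal. Of 731 alternative values of single members, 16 from tests turned their sign. Each lacked a call in at least 1 of the settings, and the cause was not tested. In log2 these were, for arch endothelium, Gja1 at 0.15 without capillary, venous and lymphatic cells, Gjc1 at -0.10 in cluster 1 and Cldn5 at 0.50 in cluster 6. For adventitial endothelium they were Cldn5 at -0.0089 without the filter and -0.0502 without doublet removal, and Gjc1 at -0.36 in thinned cells. For arch fibroblasts they were Gja4 at -0.10 and Tjp1 at 0.41 in thinned cells, and Tjp1 at 0.0002 without doublet removal. For adventitial fibroblasts in cluster 5 they were Gjc1 at -0.0154, Tjp1 at -0.98 and Jam2 at -2.52. For the difference between classes in thinned cells they were Gja1 at -0.86, Gja5 at 0.35, Ocln at 3.09 and F11r at 0.0183. Leaving out 1 intimal library at a time, endothelium against fibroblasts had 4662 to 6457 genes called, and against macrophages 3311 to 3720, with 9 members higher each time. Leaving out a descending library in the other comparisons leaves no residual degrees of freedom, so it gave values without a test. Arterial cells alone could not be fitted in the adventitia. Depth limits Gja1 and Ocln most, with 13 and 114 UMIs in arch endothelium.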
